A study of Leptinotarsa decemlineata with 6 samples.

Results

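DNA transposons are mobile elements that move as DNA, and 942 genes derived from them were expressed in heads of adult Colorado potato beetles (CPBs, Leptinotarsa decemlineata). They were found by annotation. A gene of the deposited tables was taken when its best match in the NR or Swissprot protein database carried the words SETMAR, mariner, transposase, piggyBac, tigger, transposable element Tc or transposable element P, and when neither match named a retroelement. These words matched 5002 genes and the exclusion removed 5. Of the remaining 4997 genes, 477 were at 0 TPM in all 6 libraries and 3578 were above 0 but had a mean under 1 TPM in both groups. The other 942 were chosen by their measured level, a mean of at least 1 TPM in one group or the other, and are the members described here, of 33919 genes past the same threshold and 236706 genes deposited. TPM (transcripts per 1000000) is a level corrected for transcript length and library size, so it can be set side by side between genes.

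The study asked how gut microbes alter gene expression in the head, using whole heads of adult beetles that ate potato leaves without antibiotics (non-treatment, 3 libraries) or leaves soaked in a mixture of 5 antibiotics, namely tetracycline, penicillin, ofloxacin, ciprofloxacin and ampicillin (antibiotic, 3 libraries). The methods give the controls sterile water and leaves soaked in the detergent Tween-20, over 3 days of feeding in both arms before behaviour tests, whereas the figure legends mention fresh leaves alone, so which diet the non-treatment libraries stand for is not clear. Both groups are given as wild type (WT), and the labels add "olfactory cell" although whole heads were extracted. Neither the labels nor the methods give the antibiotic concentration, the age or the sex behind these libraries, or say whether a library is 1 animal or a pool. The p-values below therefore measure only the spread between these libraries.

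Most DNA transposons code for a transposase, an enzyme that cuts the element out of the chromosome and pastes it elsewhere. Old copies lose this activity and remain as fragments that can still be transcribed, and some were taken over as ordinary host genes. The name SETMAR comes from a primate gene that joins a histone methyltransferase to a mariner transposase, so an insect transcript can receive the name from the transposase part alone. Animals hold mobile elements in check with small RNAs bound to Argonaute and Piwi proteins. The deposited genes carry identifiers of the Trinity transcript assembler, although the study also speaks of a reference genome, and how reads were assigned to genes is not clear from these sources. Each gene below is named by that identifier, written without the prefix TRINITY_, and has no position in the genome here. No member was found in more than 1 of the 6 families used below.

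The 5 libraries with counts used had 25397497 to 33613953 estimated counts in all, of which 84371 to 115812 fell on the members, while antibiotic replicate 1 entered by its TPM values alone. The libraries of the 2 groups also differed in tissue markers. Summed over the 10 eye genes (opsins, arrestins and proteins named after rhodopsin), the level was 30.5 to 31.8 TPM without treatment and 344 to 503 TPM with antibiotics, and 7 of the 10 were higher by limma. Of these sums, the phosphodiesterase subunit DN62638_c3_g1 held 20.5, 20.1 and 19.4 TPM without treatment and 15.7, 23.5 and 18.7 TPM with antibiotics. The rhodopsin DN52274_c7_g1, the light receptor of the eye, was at 0.592, 0.639 and 0.252 TPM without treatment, which is low for a head, and at 161, 212 and 138 TPM with antibiotics. Sperm and axoneme genes ran the other way, with 39 of 58 lower and 2 higher, and sums of 568 to 1709 TPM against 505 to 719 TPM. The antibiotic sums held 279, 288 and 417 TPM of the dynein heavy chain DN58913_c2_g2, at 82.9, 76.5 and 82.8 TPM without treatment. They also held 113, 131 and 184 TPM of the outer dense fiber match DN58124_c3_g3, at 95.0, 79.3 and 98.9 TPM without treatment. Protamine (DN62402_c0_g1), which packs sperm DNA, was at 516, 408 and 81.8 TPM without treatment and was listed at 0 in all 3 antibiotic libraries. Of 131 gut digestion genes, 47 were lower and 2 higher, with sums of 8928 to 23321 TPM against 4810 to 9034 TPM. Of the 20 neuron genes, 2 were higher and 1 lower, with sums of 503 to 576 TPM and 403 to 569 TPM. The lower one, the synaptotagmin-15 match DN62800_c1_g1, held 183, 157 and 228 TPM of these sums without treatment. With antibiotics it held 71.8, 107 and 108 TPM. The 2 higher ones were matched to synapsin and choline O-acetyltransferase. Of these sums only those of the eye genes separate the groups, while the sperm, gut and neuron sums overlap. Most eye and sperm genes and 47 of the gut genes differ between the groups in every result below. Their part in those results was not tested. In bulk RNA, fewer cells of a type and less RNA per cell cannot be told apart.

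As a whole, the DNA transposon genes held overlapping shares of the transcripts in the 2 groups. Their summed level was 4249, 4680 and 5037 TPM without treatment and 4176, 5167 and 4951 TPM with antibiotics, or 0.418% to 0.517% of all TPM. The 2 groups overlapped. One gene, DN58059_c2_g6, weighed on this sum, and without it the sums were 4111, 4408 and 4434 TPM against 4176, 5167 and 4951 TPM, which also overlapped. The annotated genes below the 1 TPM threshold added 928 to 1017 TPM per library without treatment and 705 to 857 TPM with antibiotics.

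**Figure D1:**
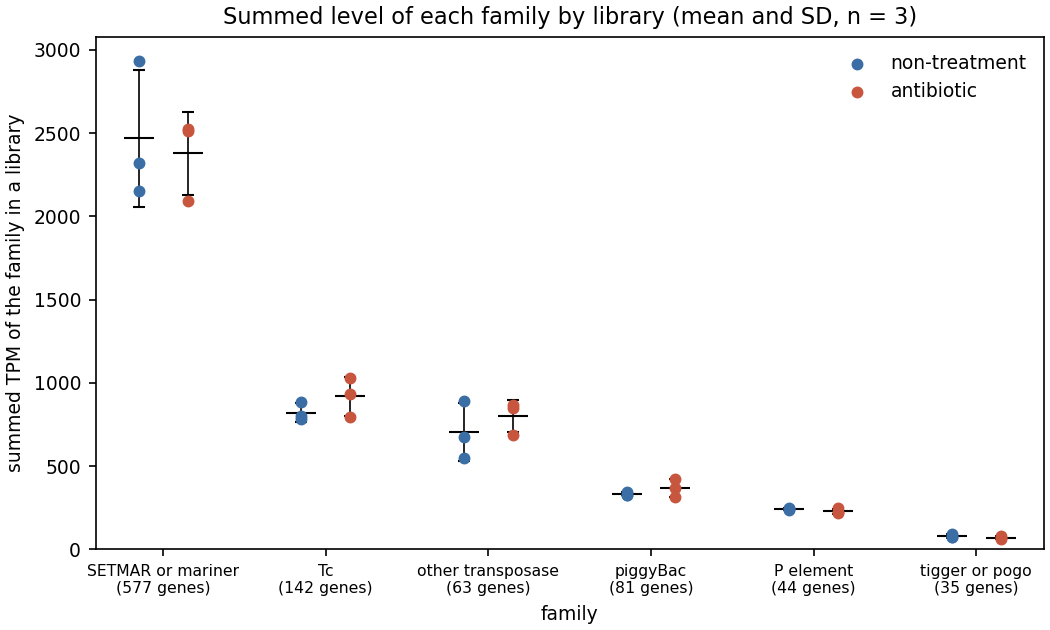
Summed TPM of each DNA transposon family in each library, with non-treatment in blue, antibiotic in red and bars for the mean and SD of 3 libraries. SETMAR or mariner genes made up the largest share in every library, and the 2 groups overlapped in every family.

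The families differed in size and in level. SETMAR or mariner genes were the most numerous, with 577 members and sums of 2150, 2321 and 2934 TPM without treatment and 2093, 2526 and 2514 TPM with antibiotics. The 142 Tc genes, relatives of the Tc1 element of the nematode Caenorhabditis elegans, summed to 885, 799 and 782 TPM and to 796, 1027 and 935 TPM. The 63 genes named only as a transposase summed to 549, 892 and 677 TPM and to 689, 867 and 848 TPM. The remaining families held less: 313 to 422 TPM over 81 piggyBac genes, 217 to 248 TPM over 44 P element genes and 61.6 to 91.9 TPM over 35 tigger or pogo genes. In no family did the sums of the 2 groups separate.

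The levels of single members were low and uneven. Over the 6 libraries, 780 of the 942 members had a mean under 5 TPM and 527 a mean under 2 TPM, 83 reached 10 TPM and 6 reached 100 TPM. The 10 most abundant members held 29.1% of the members' TPM. The median member level was 1.77 TPM, against 2.65 TPM for all genes tested. Members were also short. Estimated counts per TPM, which scale with transcript length, had a median of 0.507 of that of all genes tested over the 820 members with enough counts, and the family medians ran from 0.346 in Tc and 0.466 in SETMAR or mariner to 1.19 in P element and 1.48 in piggyBac genes. A short transcript gathers few reads, and the median member had a mean of 21.3 estimated counts in a library. The SD between replicates of a group, on the log2(TPM + 1) scale, had a median of 0.351 and 0.323 for members and of 0.328 and 0.312 for all genes.

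By limma on log2(TPM + 1), antibiotics went with a higher level of 22 members and a lower level of 45 (adjusted p under 0.05), together 7.11% of the 942. Over all 33919 genes tested, 10.1% passed, 2.88% higher and 7.26% lower, and the members' shares were 2.34% and 4.78%. The median log2 difference was -0.09 for members and -0.09 for all genes. The 3 libraries of one group lay wholly above those of the other in 102 members that were higher (10.8%, against 10.5% of all genes) and in 170 that were lower (18%, against 19.8%). By these counts the members' share of calls lay below that of all genes in both directions, while their share of separated groups lay close to it. The threshold on group means is part of how the members were found, so these counts are a description: 231 members passed it in the non-treatment group alone and 33 of these were lower, 129 passed it in the antibiotic group alone and 14 of these were higher. Among the 582 members that passed in both groups, 8 were higher (1.37%) and 12 lower (2.06%), against 2.83% and 2.67% of all genes that passed in both. With the filter set on the mean over the 6 libraries, which does not use the groups, 19 of 755 members were higher and 37 lower, 7.42% in all, where all genes had 10.9%, 3.17% higher and 7.68% lower.

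**Figure D2:**
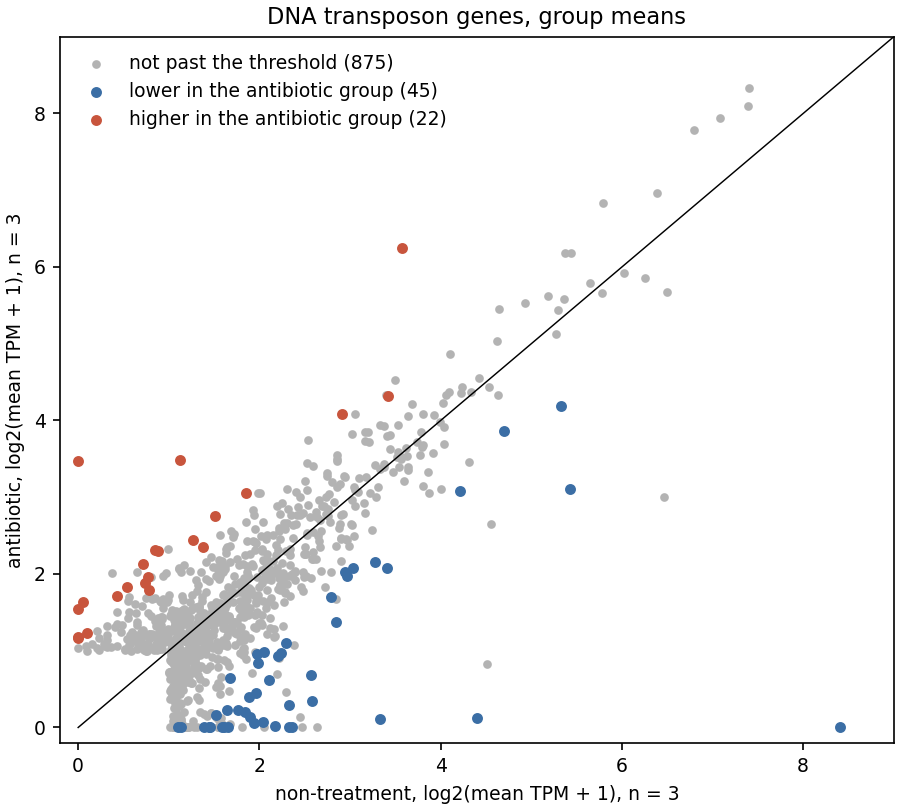
Mean level of the 942 DNA transposon genes in the non-treatment (x) and antibiotic (y) groups, as log2 of the mean TPM plus 1, with the line of equal levels. The 45 lower genes lie mostly along the bottom, with 33 of them under 1 TPM with antibiotics, and the 22 higher genes lie mostly at the left, with 14 under 1 TPM without treatment.

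Other settings moved these counts. Scaling the libraries by median-of-ratios factors in place of total TPM gave 33 higher and 38 lower members, so the share of higher genes among the calls was 46.5% and not 32.8%. All genes moved the same way, to 1321 higher and 2319 lower, a share of 36.3% and not 28.4%. Leaving out 1 library gave 6 to 18 higher and 14 to 47 lower of these members. All genes dropped too in most of these fits, to 512 to 855 higher and 1204 to 3012 lower, from 976 and 2464. The edgeR quasi-likelihood test on the estimated counts of 5 libraries gave 12 higher and 24 lower of 729 members tested, 4.94%, where all genes had 8.85%, 3.08% higher and 5.77% lower. DESeq2 on the same counts gave 15 higher and 50 lower of 898 members, 7.24%, where all genes had 7.99%, 2.33% higher and 5.66% lower. At an unadjusted limma p under 0.05 with a log2 ratio of the mean TPM over 1, 58 members were higher and 111 lower, 17.9%, where all genes had 20.4%, 5.97% higher and 14.4% lower.

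SETMAR or mariner was the largest family and held most of the calls, with 17 higher and 26 lower of 577. This was 7.45%, near the 7.11% of all members and below the 10.1% of all genes tested. The family's median log2 difference was -0.04. DN58059_c2_g6, matched to a partial SETMAR protein, was at 137, 272 and 603 TPM in the non-treatment libraries, from 3019, 6183 and 14903 estimated counts, and was listed at 0 TPM in all 3 antibiotic libraries, with 0 counts in the 2 that have counts. Its counterpart DN57902_c4_g1, also matched to SETMAR, was listed at 0 in all 3 non-treatment libraries and was at 13.6, 9.94 and 6.86 TPM in the antibiotic libraries, from 37 and 24 estimated counts in antibiotic replicates 2 and 3. These genes were chosen for this pattern, so their values are given without a test. DN58059_c2_g6 was lowest in non-treatment replicate 1 and highest in replicate 3.

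A further set of SETMAR or mariner genes was clearly present in 1 group and near 0 in the other. DN54410_c5_g1, a SETMAR match, was at 17.9, 19.7 and 22.9 TPM without treatment and at 0, 0.0491 and 0.212 TPM with antibiotics, a log2(TPM + 1) difference of -4.28 ± 0.22 (SE, limma adjusted p = 5.64e-05). DN54507_c5_g7, named a mariner transposase in NR and SETMAR in Swissprot, was at 4.62, 3.21 and 4.27 TPM and was listed at 0 with antibiotics. The groups did not overlap in either gene. DN59218_c6_g3 was at 3.23, 3.96 and 5.23 TPM against 0.0241, 0 and 0 TPM, and DN55988_c4_g1 at 3.84, 3.18 and 3.55 TPM against 0.0506, 0 and 0 TPM. DN55795_c3_g3 fell from 3.52, 3.58 and 4.91 TPM to 0.109, 0.0761 and 0.481 TPM (log2 difference -2.04 ± 0.26, limma adjusted p = 0.00317). All 5 lay below 1 TPM in every antibiotic library. They passed the threshold in the non-treatment group alone and were picked by smallest p, so their p-values are description.

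In the opposite direction, DN63017_c4_g1, a long SETMAR match with 74 to 833 estimated counts, was at 1.36, 1.35 and 0.81 TPM without treatment and at 13.7, 9.19 and 7.83 TPM with antibiotics, a log2 difference of 2.35 ± 0.27 (limma adjusted p = 0.00215). DN60491_c3_g1, matched to Mos1, an active mariner of fruit flies, rose from 1.2, 0.756 and 0.555 TPM to 3.67, 4.23 and 3.87 TPM (log2 difference 1.43 ± 0.24, limma adjusted p = 0.00947). DN51976_c5_g2 was listed at 0 without treatment and was at 1.63, 2.46 and 1.70 TPM with antibiotics, but from only 5 and 3.24 estimated counts (limma adjusted p = 0.00904). Its call was lost without antibiotic replicate 2 (limma adjusted p = 0.0509) and by edgeR with no count filter (adjusted p = 0.297), and the gene did not pass the filter on the mean over the 6 libraries. DN60491_c3_g1 and DN51976_c5_g2 passed the threshold in the antibiotic group alone and were picked by smallest p, so their p-values are description. Mos1 matches did not share a direction. Of 58 members with that name, 1 was higher and 2 were lower, 5.17% in all against 10.1% of all genes tested. The lower ones were DN61367_c4_g5 with a log2 difference of -1.26 and DN56003_c1_g1 with one of -1.05.

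**Figure D3:**
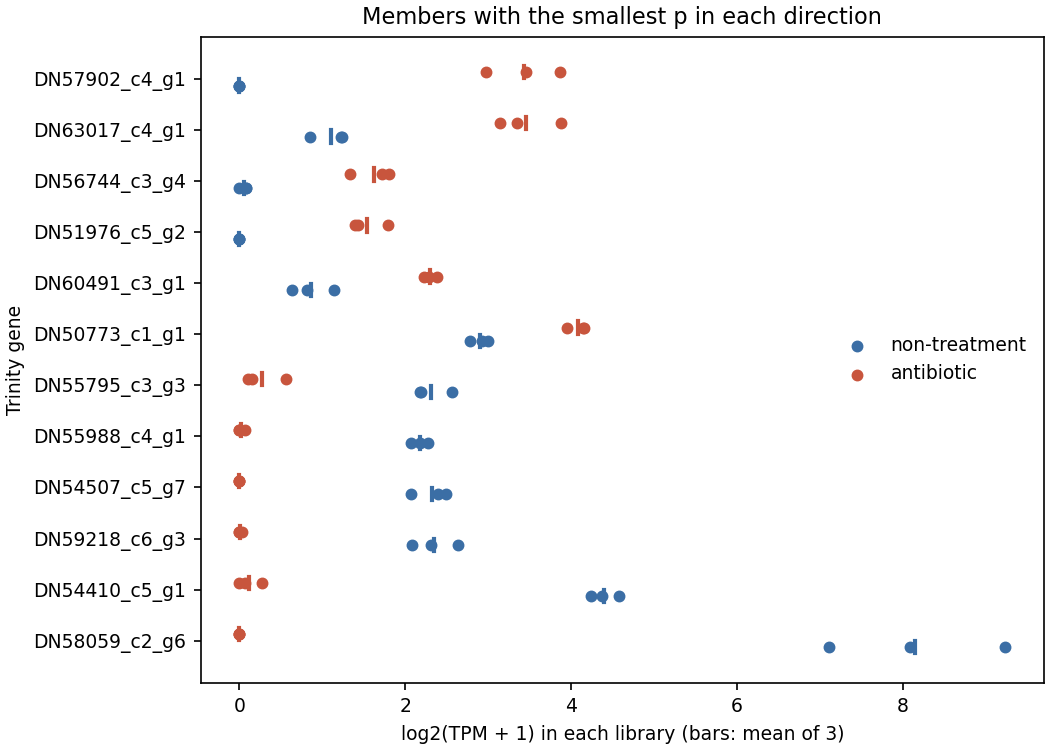
Level of the 12 members with the smallest p in each direction, as log2(TPM + 1) in each library, with non-treatment in blue, antibiotic in red and a bar at the mean of 3. In all 12 the groups do not overlap. This comes with the choice by smallest p, since all 22 higher and all 45 lower members were separated. DN58059_c2_g6 and DN54410_c5_g1 stand out by their level in the non-treatment libraries.

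Tc genes were the other family with members in both directions, with 5 higher and 6 lower of 142. This was 7.75%, against 10.1% of all genes tested, and the median log2 difference was -0.12. DN50773_c1_g1, matched to the Tcb1 transposase of the nematode Caenorhabditis briggsae, was at 7.01, 5.87 and 6.61 TPM without treatment and at 14.4, 16.7 and 16.8 TPM with antibiotics, a log2 difference of 1.18 ± 0.19 (limma adjusted p = 0.00793). It had tight replicates and over 100 estimated counts in each library with counts, and its limma adjusted p was 0.0559 with no filter on low values. DN56744_c3_g4, a Tc3 match, rose from 0.0563, 0.0569 and 0 TPM to 2.50, 1.52 and 2.30 TPM (log2 difference 1.57 ± 0.26, limma adjusted p = 0.00888). It passed the threshold in the antibiotic group alone and was picked by smallest p, so its p-value is description. DN58261_c3_g1, a Tcb2 match, rose from 9.96, 7.04 and 12.2 TPM to 21.4, 17.5 and 18.3 TPM at an adjusted p of 0.0496 by limma, just inside the threshold. The most abundant Tc gene that fell was DN65763_c7_g2, at 43.5, 35.7 and 37.9 TPM against 14, 19.4 and 18.2 TPM (log2 difference -1.14 ± 0.20, limma adjusted p = 0.0122). DN58261_c3_g1 and DN65763_c7_g2 were chosen for description after their values were seen.

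In the other 4 families, 13 of 223 members were lower by limma and none was higher, while 3 were higher under each of median-of-ratios scaling, edgeR and DESeq2 and 1 with the filter that does not use the groups, so the one-sided direction depends on the scaling and the test. Without non-treatment replicate 3 it was 1 higher and 14 lower, and without the other libraries it was 0 higher and 1 to 6 lower. By limma, 4 of 81 piggyBac genes were lower (4.94%), with a family median of -0.24, as were 5 of 63 other transposase genes (7.94%), 2 of 44 P element genes (4.55%) and 2 of 35 tigger or pogo genes (5.71%). Over all genes tested, 7.26% were lower by limma. Among the examples, which were all chosen after their values were seen, is DN62097_c5_g2, named transposase-like, at 24.3, 70.7 and 30.7 TPM against 6.06, 11.5 and 5.28 TPM (log2 difference -2.23 ± 0.43, limma adjusted p = 0.0179). DN54690_c3_g2, matched to the tigger-derived protein TIGD4 that vertebrates keep as a host gene, fell from 6.47, 10.9 and 8.65 TPM to 2.60, 4.24 and 3.53 TPM (limma adjusted p = 0.0364). DN65634_c3_g1, matched to piggyBac-derived protein 4, fell from 4.41, 4.47 and 2.86 TPM to 0.971, 1.42 and 1.05 TPM (limma adjusted p = 0.0239).

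P element genes gave the one case where 2 genes of a component both passed limma as lower. The genes DN60354_c5_g2 and DN60354_c5_g4, both P transposase matches, share an assembly component, the unit in which the assembler groups related transcripts, and whether they are pieces of a single locus was not tested. The first was at 2.44, 3.33 and 3.06 TPM against 0.646, 0.899 and 0.805 TPM, and the second at 4.57, 8.22 and 5.01 TPM against 2.10, 2.10 and 2.59 TPM. The first passed the 1 TPM threshold in the non-treatment group alone. The SETMAR pair DN60312_c1_g3 and DN60312_c1_g4 rose together, the second from 4.14, 1.71 and 1.96 TPM to 5.85, 8.37 and 7.80 TPM. The 942 members came from 806 components. In 103 components with 2 or more members, 239 members in all, the log2 differences had one sign in 44.

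Few members were abundant. Of the 6 with a mean of at least 100 TPM, 5 had a log2 difference above 0 without passing limma, and DN58059_c2_g6 was the exception. That share was not counted over all genes at this level, so it is not given as a trait of the members. At 10 TPM or more, 59.0% of members had a difference above 0, against 53.2% of all genes. The highest was DN55691_c6_g2, named transposase, at 143, 159 and 202 TPM without treatment and 276, 292 and 396 TPM with antibiotics. Its groups did not overlap, and the log2 difference of 0.93 ± 0.24 had a limma adjusted p of 0.0503. It passed in 7 of the 19 other fits, among them median-of-ratios scaling (0.0277). DN62922_c3_g1, named transposase too, was at 80.6, 166 and 83.6 TPM against 187, 303 and 169 TPM (limma adjusted p = 0.121), and passed with the replicate number as a block (limma adjusted p = 0.0285) and by edgeR with no count filter (adjusted p = 0.00956). It did not pass in 17 other fits. DN51690_c0_g1, a Tcb1 match, was at 191, 88.4 and 125 TPM against 185, 269 and 278 TPM, and DN62435_c5_g2, a SETMAR match, at 114, 143 and 243 TPM against 295, 187 and 333 TPM, with overlapping groups in both (limma adjusted p = 0.132 and 0.243). The first of these passed by edgeR with no count filter (adjusted p = 0.000633) and did not pass in 18 other fits.

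Below these, the families' leading genes were DN54299_c3_g1 and DN65666_c11_g2, both near the threshold. DN54299_c3_g1, matched to piggyBac-derived proteins, was at 63.1, 52.1 and 48.1 TPM against 84.7, 157 and 97.8 TPM (log2 difference 1.0 ± 0.27, limma adjusted p = 0.0586), and passed by edgeR (adjusted p = 0.0438), by DESeq2 (0.0118), with median-of-ratios scaling (0.0183) and with a mean of at least 5 TPM (0.0462). It did not pass in 13 other fits, among them limma with a replicate block (adjusted p = 0.0876) and with any 1 library left out (0.0667 to 0.150). DN65666_c11_g2, a Tc3 match, was at 37.2, 49.6 and 40.5 TPM against 77.3, 74.1 and 63.4 TPM (log2 difference 0.75 ± 0.20, limma adjusted p = 0.0552), and passed under the same scaling (0.0387), the same filter (0.0396) and a pseudocount of 0.1 (0.0433). It did not pass in 16 other fits, among them edgeR (adjusted p = 0.0789), DESeq2 (0.285) and limma with any 1 library left out (0.0744 to 0.146). In both genes the groups did not overlap. The other leading genes did not pass the test, with limma adjusted p from 0.425 to 0.798. DN65894_c5_g1, a P transposase match, had means of 64.2 ± 9.2 and 59.6 ± 5.3 TPM (SD, n = 3). DN64134_c0_g1, another P transposase match, had means of 23.9 ± 3.1 and 19.1 ± 3.8 TPM, and the piggyBac match DN55600_c1_g2 of 40.1 ± 10.3 and 46.9 ± 4.4 TPM. The leading tigger or pogo genes were lower in level, DN65541_c2_g1 at 8.74 ± 0.45 and 7.0 ± 2.55 TPM and DN61691_c1_g2, matched also to Jerky, at 6.48 ± 0.37 and 5.82 ± 1.48 TPM. Over all 83 members at 10 TPM or more, 3 were higher and 6 lower (10.8%, against 15.4% of all genes at that level), and 59.0% had a log2 difference above 0, against 53.2%.

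Members listed at 0 throughout a group were mostly faint in the other. Of the 942, 36 were at 0 TPM in all antibiotic libraries (3.82%, against 3.52% of all genes tested) and 5 in all non-treatment libraries (0.531%, against 0.607%). In the 36 the mean without treatment had a median of 1.29 TPM, and after DN58059_c2_g6 the next highest was 5.21 TPM. Such a mean comes from few reads, and absence cannot be told from a level below detection. In 29 of the 36, all 3 non-treatment libraries were above 0. Among the 5 genes at 0 without treatment, the next highest antibiotic mean after DN57902_c4_g1 was 1.93 TPM. Such genes entered the members through the other group alone, so no count of calls is given for them.

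The threshold itself cut through a dense range of levels. Just inside were DN60111_c3_g1, with an antibiotic mean of 1.002 TPM, and DN54425_c6_g1, with one of 1.003 TPM. Just outside were DN61989_c6_g1, with an antibiotic mean of 0.998 TPM, and DN52714_c1_g1, with a non-treatment mean of 0.9995 TPM.

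Names matter here because they come from distant proteins. Of the 942 members, 453 carried the name SETMAR, and the best NR match came from 83 organisms, led by the ant Lasius niger (226 members), the lacewing Chrysoperla plorabunda (74) and the beetle Tribolium castaneum (38). Members with an arthropod match passed the test in 53 of 812 cases (6.53%) and those with a non-arthropod match in 13 of 105 (12.4%), a difference that was not tested. A Pfam transposase or related domain was found in 138 members, of which 7.25% passed, against 7.09% of the 804 without one. In 16 members one database gave a transposon name and the other a host protein. DN51243_c6_g3 was the only one of these that changed, with the NR name odorant binding protein 26, a carrier of odours in antennae, and the Swissprot name SETMAR. It was at 12.3, 2.23 and 18 TPM without treatment and at 77.8, 67.7 and 79.2 TPM with antibiotics (log2 difference 3.02 ± 0.60, limma adjusted p = 0.0189), and was singled out after its values were seen. DN57326_c3_g1, named SETMAR in NR and SAR1, a GTPase of vesicle transport, in Swissprot, had means of 82.7 ± 26.2 and 124 ± 67 TPM (limma adjusted p = 0.530).

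The genes that restrain mobile elements gave 1 call. Of 20 small RNA silencing genes tested, 1 was lower and none higher by limma (5.0%, against 10.1% of all genes tested). Their median log2 difference was -0.24. Small RNA 2'-O-methyltransferase (DN55242_c1_g2), which in Drosophila (as Hen1) methylates the ends of piRNAs and siRNAs, fell from 48.1, 29.2 and 10.5 TPM to 4.22, 5.81 and 4.30 TPM (log2 difference -2.17 ± 0.49, limma adjusted p = 0.0324). The call was lost on leaving out any library except non-treatment replicate 3, with adjusted p from 0.0612 to 0.119, with a pseudocount of 5 (0.0558) and with no filter on low values (0.0853). Among the non-treatment libraries it was highest in replicate 1 and lowest in replicate 3.

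Among the Piwi-pathway genes, aubergine (DN63335_c2_g3), which loads piRNAs in the Drosophila germline, was at 27.9, 28.9 and 20.6 TPM against 16.0, 29.3 and 22 TPM, with a log2 difference of -0.22 ± 0.26 that turned positive (0.09 to 0.12) under edgeR and DESeq2. Argonaute-3 (DN59876_c0_g1), its partner in the ping-pong cycle, had means of 3.07 ± 0.39 and 2.08 ± 0.78 TPM, and a second argonaute-3 gene (DN57180_c0_g2) of 1.07 ± 0.49 and 0.896 ± 0.127 TPM. Spindle-E (DN61119_c3_g1) had means of 5.20 ± 0.15 and 6.69 ± 1.91 TPM, maelstrom (DN62736_c4_g1) of 15.8 ± 1.1 and 16.4 ± 4.0 TPM, and mitochondrial cardiolipin hydrolase (DN58778_c2_g2), known in Drosophila as zucchini, of 4.28 ± 0.27 and 5.4 ± 2.13 TPM. Tudor proteins scaffold the Piwi pathway in animals, and 6 such genes were tested. Tudor domain-containing 7B (DN62735_c5_g4), 7 (DN54763_c0_g1), 1 (DN60374_c7_g1) and 6 (DN56262_c2_g5) had non-treatment means of 10.7 ± 0.32, 7.0 ± 0.19, 5.10 ± 0.63 and 2.64 ± 0.65 TPM and antibiotic means of 9.52 ± 2.37, 5.51 ± 1.09, 3.80 ± 0.74 and 3.33 ± 1.30 TPM. Of the other Tudor 7B matches, DN62735_c5_g9 had means of 4.37 ± 0.26 and 3.18 ± 1.19 TPM and DN64678_c3_g2 of 1.09 ± 0.24 and 0.550 ± 0.356 TPM. In the siRNA branch, Argonaute-2 (DN65436_c2_g1) had means of 17.1 ± 1.2 and 23.0 ± 5.0 TPM and dicer-2a (DN54297_c4_g2) of 4.43 ± 0.41 and 5.64 ± 2.00 TPM. The 3 further Argonaute-2 genes had lower means with antibiotics, DN62083_c0_g1 with 11.6 ± 7.3 and 5.76 ± 2.99 TPM, DN62083_c0_g2 with 9.54 ± 3.77 and 6.29 ± 2.68 TPM, and DN64921_c3_g1 with 6.41 ± 1.5 and 5.43 ± 2.68 TPM. Dicer-2b (DN64454_c2_g2) had means of 2.27 ± 0.091 and 2.85 ± 0.62 TPM. Dcr-1 (DN61760_c2_g1), which cuts microRNAs in Drosophila, had means of 2.77 ± 1.06 and 1.67 ± 0.27 TPM. None of these passed the test, and in all of them but Dcr-1 the lowest antibiotic level was in replicate 1.

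**Figure D4:**
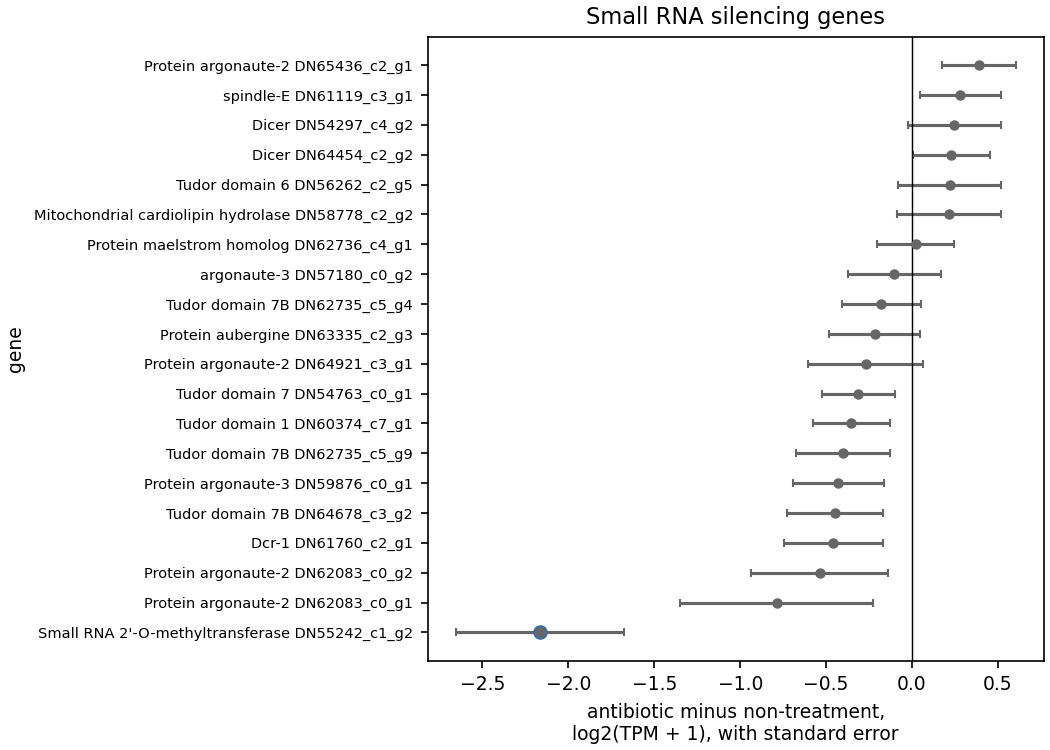
Log2(TPM + 1) difference, antibiotic minus non-treatment, of the 20 small RNA silencing genes, with standard errors from limma. The one gene past the threshold, small RNA 2'-O-methyltransferase at -2.17, lies apart from the others.

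Chromatin silencing genes gave no call. None of 7 passed, with a median log2 difference of -0.07. Heterochromatin protein 1 (DN63124_c2_g2), which binds silenced chromatin, was at 87.6, 92.6 and 106 TPM against 69.9, 123 and 97.9 TPM, and eggless (DN54037_c5_g1), the histone methyltransferase that silences transposons in Drosophila, at 7.27, 6.75 and 7.19 TPM against 4.57, 7.59 and 7.34 TPM. The groups overlapped in both. Retroelements, which move through an RNA copy, and host genes derived from other transposases were set beside the members. Of 1427 retroelement genes, 17 were higher and 55 lower (5.05%), with a median of -0.20, and of 145 genes related to harbinger, hAT, THAP, jerky and CENPB proteins, none was higher and 6 were lower (4.14%), with a median of -0.17. Both shares lay below the 10.1% of all genes tested.

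**Figure D5:**
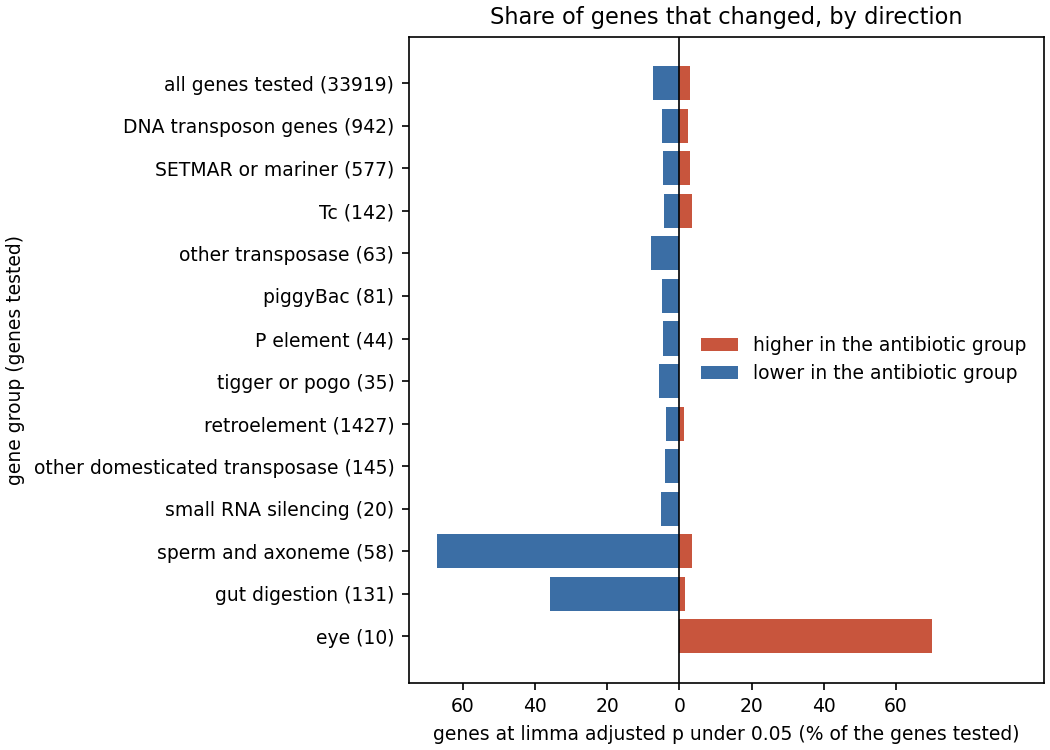
Share of genes past limma's adjusted p of 0.05, in percent of the genes tested, with higher in the antibiotic group to the right in red and lower to the left in blue. All DNA transposon families lie between 4.55% and 7.94% in both directions together, below the 10.1% of all genes, while sperm and axoneme (70.7%), gut digestion (37.4%) and eye genes (70.0%) lie far above it.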

How the data were processed

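TPM values were deposited for all 6 libraries, corrected by the authors for transcript length and depth. Estimated counts were deposited in the same files and were used for 5 libraries, rounded to whole numbers. Antibiotic replicate 1 entered by TPM alone, and 2 columns that repeat the counts of other libraries and 0 columns of foreign samples were set aside. RNA was extracted from heads and libraries were made from mRNA. The submitters' processing notes name FastQC, Salmon, DESeq2 and mm10, a mouse build, and the methods name featureCounts, while the gene identifiers are those of Trinity. None of these sources states a version. The DNA transposon genes and all lists were chosen with earlier results of these data known.

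Genes with a mean of at least 1 TPM in a group entered limma 3.58.1 (R 4.3.3) with an intensity trend on log2(TPM + 1), pseudocount 1, without a block, with Benjamini-Hochberg adjustment over all 33919 genes. Differences are therefore on the log2(TPM + 1) scale, which understates the change of low genes. Alternatives were edgeR 4.0.16 and DESeq2 1.42.0 on the counts, a screen on unadjusted p and ratio, and other filters, pseudocounts, scalings, annotation matches and left-out libraries. The screen took its thresholds from the methods. It used the limma p and the ratio of mean TPM where the methods used DESeq2, so its counts are not those of the study's screen. The limma, edgeR and DESeq2 fits were tested on simulated counts, and the other steps were not. The changes set in that simulation lay only in genes with more counts than the median member. How the fits do on members as faint as that was not tested.

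Genes named are the 2 chosen for their pattern in these data (DN58059_c2_g6 and DN57902_c4_g1), the 2 most abundant of each family, the 6 with the smallest p in each direction, the 2 nearest the threshold on each side, and silencing genes that passed or led their name, beside which the rest of the small RNA silencing list is given. Other names were added after their values were seen and are marked so. Lists were built from annotation words for eye, neuron, gut, sperm, germline, silencing, DNA repair, retroelement and transposase genes. Group sums carry no test.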

Additional observations from a re-analysis of the deposited data

How the results depend on the processing

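Of the 67 calls among DNA transposon genes, none changed sign in any refit, but their number depended on the test, the filter and the library left out. Higher and lower members, 22 and 45 as reported, became 12 and 24 by edgeR (12 and 24 with DESeq2 size factors, 30 and 71 with no count filter). They became 12 and 12 with a mean of at least 5 TPM and 8 and 20 with no filter. All genes had 1121 and 2103 by edgeR (1112 and 2103, 2121 and 4686), 788 and 1642 at 5 TPM and 492 and 1646 with no filter. At 5 TPM fewer genes enter, and 50.0% of the called members were higher, against 32.4% of all called genes. A match in Swissprot (416 members) gave 6 and 19, and a match in both databases (317 members) gave 3 and 14. The screen of unadjusted limma p under 0.05 and a log2 ratio over 1 gave 58 and 111, which is 17.9% against 20.4% of all genes, and 13 and 18 with at least 5 TPM. Leaving out 1 library and setting the 1 TPM threshold again gave 6 to 18 and 14 to 51. The fewest came without antibiotic replicate 1 (6 and 14), and the others were 7 and 22 without antibiotic replicate 2, 9 and 17 without antibiotic replicate 3, 14 and 38, 9 and 27, and 18 and 51 without non-treatment replicates 1, 2 and 3. The 51 include annotated genes that reach 1 TPM only without that library, and 47 are among the 942. These fits kept 20 to 48 of the 67 calls, DESeq2 kept 36 of 63 and edgeR 28 of 54 tested. Fewer samples and another set of genes tested are part of these settings, and the cause was not tested further.

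Over all genes, 976 higher and 2464 lower became 2121 and 4686 by edgeR with no count filter, 492 higher with no filter, 1642 lower with at least 5 TPM, 2025 and 4883 under the screen, and 512 to 855 and 1204 to 3012 with 1 library left out. With the replicate number as a block, 12 members were higher and 20 lower, and 29 of the 67 calls were kept. All genes then had 734 higher and 1881 lower. Same-numbered libraries had correlations of 0.13, -0.09 and 0.10, so the numbers were not taken to pair them, and antibiotic replicate 2 correlated best with a non-treatment library of another number.

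Log2 differences that changed sign belonged to genes that did not pass. DN61691_c1_g2 (-0.16) became 0.037 by DESeq2, 0.0070, 0.0038 and 0.022 by edgeR with TMM, DESeq2 factors and no filter, and -0.30 to 0.020 with 1 library left out. Aubergine, DN63335_c2_g3 (-0.22), became 0.12, 0.095, 0.089 and 0.11 in the same order. Tudor 7B, DN62735_c5_g4 (-0.18), became 0.022 by DESeq2, 0.0076 by edgeR with no filter and -0.32 to 0.014 with 1 library left out. Maelstrom, DN62736_c4_g1 (0.02), became -0.058 with totals without the 10 most abundant genes and -0.14 to 0.19 with 1 library left out. DN65894_c5_g1 (-0.10) became 0.0084 with median-of-ratios scaling, and DN60111_c3_g1 (0.32) ran from -0.015 to 0.63. The median of all genes was -0.09, -0.48 by DESeq2 and -0.44 by edgeR with no filter, both over a wider set of genes, and -0.17 with totals without the 10 most abundant genes. The median member had 21.3 estimated counts in a library, and how small a change could be called at that depth was not tested.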

Other observations

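Of 9 DNA repair and end joining genes, which mend the breaks that transposases leave, 1 was higher and none lower by limma. This was 11.1%, near the 10.1% of all genes tested. DN57310_c1_g1, matched to a Rad50 ATPase, was at 19.8, 19.9 and 33.5 TPM without treatment and at 53.4, 52.6 and 61.8 TPM with antibiotics (log2 difference 1.2, limma adjusted p = 0.0222). The gene matched to DNA repair protein RAD50 itself, DN66090_c4_g1, was at 2.61, 2.40 and 2.43 TPM against 0.997, 2.68 and 1.85 TPM, with overlapping groups. Of 5 germline genes, boule (DN63400_c11_g1), a regulator of male meiosis in Drosophila, was the only one that passed. It was at 67.4, 45.3 and 16.1 TPM without treatment and at 1.15, 1.69 and 1.61 TPM with antibiotics. Vasa (DN64549_c1_g2), a helicase of germ cells, was at 11.9, 12.7 and 11.3 TPM against 6.53, 13.4 and 8.60 TPM.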
